A study of Mus musculus with 112 samples.

Results

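Genes of meiosis and germ cells, 10 of the 25209 genes counted, were followed through 112 RNA-seq libraries from mouse embryonic stem cells (ESCs) and their differentiated derivatives. The genes were listed by name, with earlier results of these data known. They are Dazl, Stk31, Brdt and Taf7l, Hormad1, Sycp1 and Sycp3, and Smc1b, Stag3 and Rec8. All 10 were present in the count files and all 10 passed the filter on low counts in each of the 35 comparisons made.

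Meiosis is the pair of cell divisions by which germ cells make eggs and sperm. In its prophase the sister chromatids are held by a meiotic form of cohesin, the ring complex that ties chromatids together, the chromosome axis is built on this cohesin, and the synaptonemal complex zips the axes of paired chromosomes. Genes for these proteins are kept silent in most somatic cells by promoter DNA methylation and by the Polycomb complex PRC1.6, whose subunits read E-box and E2F sequences, and several of them are known to be transcribed at a low level in ESCs.

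The cells were V6.5 mouse ESCs kept in serum-free medium with LIF and inhibitors of MEK and GSK3, a condition that holds them in a naive state. Wild type (WT) ESCs were compared with LSD1 KO cells, in which the promoter and first exon of Kdm1a were removed by CRISPR, and with LSD1 CI cells, in which the endogenous LSD1 carries point mutations that inactivate its demethylase activity. LSD1 demethylates histone H3 at lysine 4 within the CoREST complex, whose scaffolds RCOR1 and RCOR2 were deleted singly (RCOR1 KO, RCOR2 KO) or together (RCOR1/2 DKO). MLL4, encoded by Kmt2d, methylates the same lysine at enhancers and was deleted alone (MLL4 KO), with LSD1 (MLL4/LSD1 DKO) or in LSD1 CI cells (MLL4KO/LSD1CI). Cells were also collected as embryoid bodies (EBs) after 6 days, after 4 days in serum, and after 2 days as epiblast-like cells (EpiLCs). A485, an inhibitor of the acetyltransferases p300 and CBP, or its solvent DMSO was given to LSD1 KO cells as naive ESCs and in each of these states. The paper gives a lower A485 dose for EBs than for naive ESCs, and none for serum or EpiLCs. WT cells had DMSO alone as EBs, in serum and as EpiLCs, and LSD1 CI cells had it in serum and as EpiLCs. In a separate experiment LSD1 was put back with doxycycline (DOX) into LSD1 KO cells (LSD1Res) and overexpressed in RCOR1/2 DKO cells (DKO + LSD1). By their labels, LSD1 KO cells without the LSD1 transgene were also sequenced with and without DOX. 

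The 34 groups held between 2 and 11 libraries, 18 of them only 2, with totals of 17221431 to 58186717 counts per library. The study's methods describe biological replicates taken from separate clones, but the labels tie no library to a clone or a culture, so a p-value measures the spread between these libraries. The libraries WT ESC 1 to 3 and LSD1 KO ESC 1 to 6, 9 in all, had no count on unplaced contigs. Every other library had at least 4241. These 9 libraries are treated here as a separate alignment, which the sources do not state. Any other difference between them and the rest cannot be told apart from it. The targeted genes followed the labels with 1 partial exception. Kdm1a was at 192 ± 26.8 CPM, counts scaled to a common library total (SD, n = 11), in WT ESC and at 5.38 ± 1.54 (n = 6) in LSD1 KO ESC, and Rcor1 and Rcor2 were at 3.25 and 3.21 in RCOR1/2 DKO ESC against 47.4 and 96.2 in WT ESC. The exception was the pair of libraries labelled RCOR2 KO EB, where Rcor2 stood at 44.6 and 53.8 CPM, against 2.62 in RCOR2 KO ESC and 136 in WT EB. Kmt2d transcript remained in the MLL4 KO libraries, and a count over the whole gene does not check a deletion of part of it. ESC markers fitted the label in all WT ESC libraries, with a summed level of 5 pluripotency genes (Pou5f1, Sox2, Nanog, Zfp42 and Esrrb) of 1781 to 2351 CPM.

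The promoter windows are shown because the Polycomb complex named above reads short sequences in them. RefSeq (GRCm38.p6) lists the 250 bases before the annotated start of all 10 genes, and Hormad1 and Stk31 have 2 listed starts, of which the first listed was used. The letters CACGTG, an E-box read the same on both strands, were in the windows of 7 of the 10 genes and in 6.05% of 27018 windows of the same length. The E2F core GCGGGA, or TCCCGC on the other strand, was in 4 of the 10 and in 16.9% of all windows. Hormad1 and Sycp3 held both, as did 1.47% of all windows, and Dazl held neither. CpG dinucleotides numbered 10 to 26 in the 10 windows, where the median over all windows was 6 with quartiles at 2 and 16. A match is only a match of letters. The windows of 7 genes are given 5′ to 3′ on the strand of the gene, in lower case with matches in capitals, for Dazl at chr17:50293621-50293870 (minus strand), Smc1b at chr15:85131958-85132207 (minus), Hormad1 at chr3:95559427-95559676 (plus), Stk31 at chr6:49395289-49395538 (plus), Brdt at chr5:107330944-107331193 (plus), Sycp3 at chr10:88459337-88459586 (plus) and Stag3 at chr5:138280259-138280508 (plus).
Dazl: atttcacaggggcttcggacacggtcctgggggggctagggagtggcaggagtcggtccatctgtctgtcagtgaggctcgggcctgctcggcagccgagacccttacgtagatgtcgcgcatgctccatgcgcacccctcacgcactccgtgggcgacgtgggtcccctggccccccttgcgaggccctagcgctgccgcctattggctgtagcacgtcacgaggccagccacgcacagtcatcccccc
Smc1b: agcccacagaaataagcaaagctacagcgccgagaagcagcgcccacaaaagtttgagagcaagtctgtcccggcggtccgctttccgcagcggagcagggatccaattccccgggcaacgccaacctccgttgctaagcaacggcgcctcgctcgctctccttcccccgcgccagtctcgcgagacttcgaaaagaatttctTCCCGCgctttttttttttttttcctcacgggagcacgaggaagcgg
Hormad1: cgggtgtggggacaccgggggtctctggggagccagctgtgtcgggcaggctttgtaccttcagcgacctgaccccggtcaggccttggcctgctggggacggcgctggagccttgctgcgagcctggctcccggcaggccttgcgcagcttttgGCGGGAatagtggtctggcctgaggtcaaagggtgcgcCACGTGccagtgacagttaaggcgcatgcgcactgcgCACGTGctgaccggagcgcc
Stk31: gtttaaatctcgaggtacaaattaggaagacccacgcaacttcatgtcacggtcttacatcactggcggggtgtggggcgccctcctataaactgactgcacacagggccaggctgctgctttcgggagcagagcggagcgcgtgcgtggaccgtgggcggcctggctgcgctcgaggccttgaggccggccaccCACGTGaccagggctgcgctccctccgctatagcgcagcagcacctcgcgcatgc
Brdt: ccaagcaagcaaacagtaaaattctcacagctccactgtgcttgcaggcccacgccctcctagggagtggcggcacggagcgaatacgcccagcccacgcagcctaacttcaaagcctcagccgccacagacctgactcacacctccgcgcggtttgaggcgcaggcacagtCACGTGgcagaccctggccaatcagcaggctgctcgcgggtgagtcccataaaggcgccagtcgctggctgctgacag
Sycp3: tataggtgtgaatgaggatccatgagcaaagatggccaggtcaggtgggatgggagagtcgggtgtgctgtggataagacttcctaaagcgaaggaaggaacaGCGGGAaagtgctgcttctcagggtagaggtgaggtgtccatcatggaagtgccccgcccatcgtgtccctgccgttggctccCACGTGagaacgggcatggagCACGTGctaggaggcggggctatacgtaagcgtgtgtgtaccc
Stag3: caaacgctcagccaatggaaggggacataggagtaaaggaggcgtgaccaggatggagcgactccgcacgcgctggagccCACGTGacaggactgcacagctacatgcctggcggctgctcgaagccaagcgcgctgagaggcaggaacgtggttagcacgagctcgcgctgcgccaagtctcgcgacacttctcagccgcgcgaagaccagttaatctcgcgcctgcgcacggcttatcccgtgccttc

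The counts themselves were made on mm9, and the genes' positions on that build lie on 8 chromosomes. Stk31 spans chr6:49345603-49419501 with 24 merged exons, Hormad1 and Sycp1 lie on chromosome 3, Brdt and Stag3 on chromosome 5, and Taf7l on the X chromosome. Counting was set to use strand, per the study's methods, and reads from neighbouring or antisense genes were not checked for.

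WT ESCs transcribed 8 of the 10 genes at a mean level above 1 RPKM, that is CPM per kilobase of exon. Stag3, a meiotic cohesin subunit, was highest at 17.5 ± 3.85 RPKM (SD, n = 11). Hormad1, an axis protein that marks chromosomes not yet paired, followed at 7.86 ± 3.06, and Rec8, the meiotic kleisin subunit of cohesin, at 4.65 ± 1.03. Sycp3 (axial element of the synaptonemal complex) at 2.99 ± 2.00, Dazl (an RNA-binding protein needed for germ cell development) at 2.84 ± 0.89 and Stk31 (a Tudor domain protein of the testis) at 2.65 ± 0.71 RPKM did not differ from each other beyond their spread, and neither did Smc1b (a meiotic cohesin subunit) at 1.14 ± 0.71 and Sycp1 (the transverse filament of the synaptonemal complex) at 1.03 ± 1.29. Taf7l, a germ cell form of a TFIID subunit, at 0.105 ± 0.089 RPKM and Brdt, the bromodomain protein of the testis, at 0.0385 ± 0.0354 RPKM were near the bottom, with 0 to 17 and 0 to 24 counts per library. Sycp1 fell into separate clusters among WT ESC libraries, 5.75 to 11.8 CPM in WT ESC 6, 7, 10 and 11 and 0.155 to 1.06 CPM in the other 7, so its comparisons with WT ESC depend on which libraries stand for WT.

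**Figure D1:**
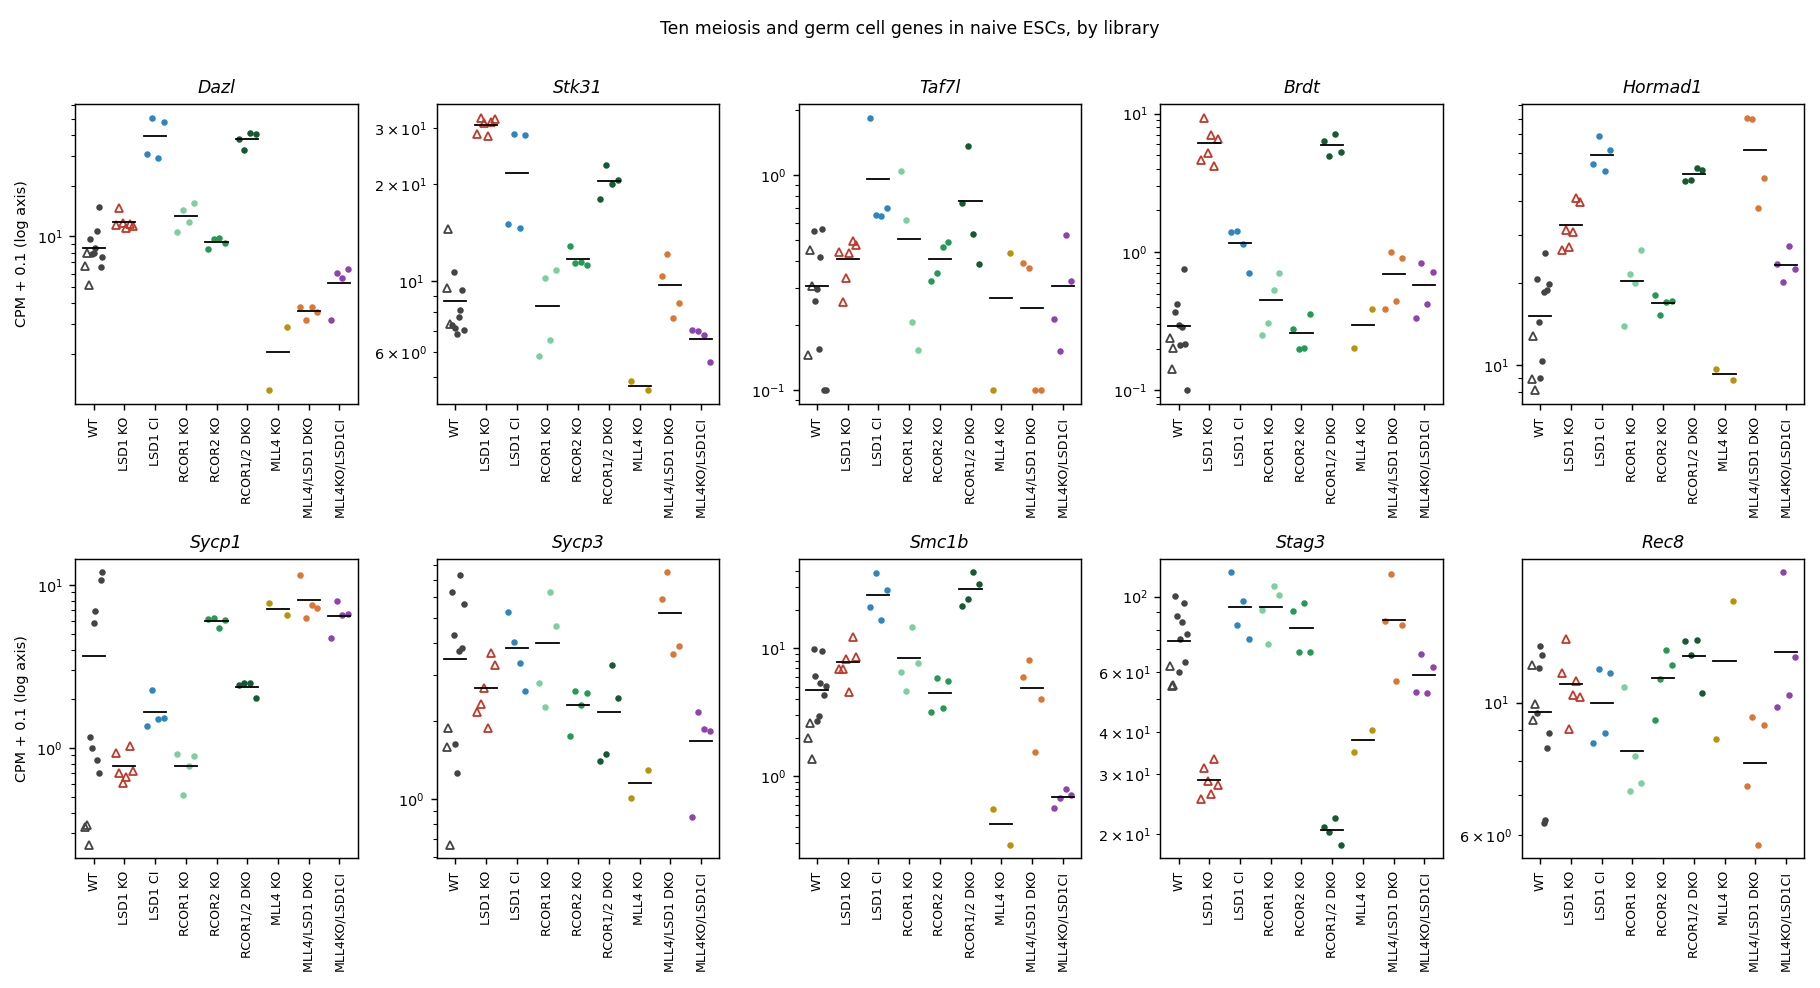
Level of each gene in naive ESCs, CPM + 0.1 on a log axis, by genotype. Points are libraries, open triangles the 9 libraries without counts on unplaced contigs, and short lines the group means. Brdt sits at or under 0.653 CPM in every WT ESC library and at 4.09 CPM or more in every LSD1 KO ESC and RCOR1/2 DKO ESC library, and Sycp1 is split among the WT libraries.

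Loss of LSD1 in naive ESCs moved the 10 genes in both directions. The question was how loss of the protein compares with loss of its activity. A gene was called where edgeR's quasi-likelihood test gave an adjusted p (Benjamini-Hochberg over all genes tested) below 0.01 and the log2 fold change exceeded 1 in size. In LSD1 KO ESC 5 genes were called, Brdt, Stk31 and Hormad1 higher and Stag3 and Sycp1 lower, where 21.0% of all genes tested were called. Brdt was at 0 to 0.653 CPM (median 0.138) in the 11 WT ESC libraries and at 4.09 to 9.21 CPM (median 5.78) in the 6 LSD1 KO ESC libraries. The ranges did not overlap, and the log2 fold change was 4.93 ± 0.37 (SE; adjusted p = 1.82e-14, edgeR).

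Stk31 ran from 6.73 to 14.4 CPM (median 7.6) in WT ESC and from 28.3 to 32.2 CPM (median 31.1) in LSD1 KO ESC, again without overlap (log2 fold change 1.83 ± 0.15). Hormad1 went from 8.01 to 25.7 CPM (median 14.4) in WT ESC to 26.3 to 41.0 CPM (median 30.9) in LSD1 KO ESC, with a log2 fold change of 1.14 ± 0.17. Stag3 lay lower in every LSD1 KO ESC library, at 25.3 to 33.1 CPM (median 28.2) against 54.3 to 100 CPM (median 75) in WT ESC, and fell by 1.35 ± 0.13 on the log2 scale. Dazl, at 11.1 to 14.6 CPM against 5.02 to 14.9 CPM, overlapped with WT and stayed under the size threshold at a log2 fold change of 0.54 ± 0.16.

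All 6 LSD1 KO ESC libraries came from the alignment without contig counts, and so did WT ESC 1 to 3. Within that alignment the log2 fold changes were 5.90 for Brdt, 1.99 for Smc1b, 1.67 for Hormad1, 1.65 for Sycp1, 1.51 for Stk31 and -1.05 for Stag3. All 6 were called, where 1499 of 15222 genes tested were called higher and 951 lower. Sycp1, which fell by 2.29 on the log2 scale against all WT ESC libraries, turned direction against the 3 WT libraries of the same alignment (0.155 to 0.238 CPM, with LSD1 KO ESC at 0.508 to 0.924 CPM).

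LSD1 KO ESCs were sequenced in other experiments too, which gives values side by side though no WT library stood beside them. Brdt was at 4.76 and 5.03 CPM in the LSD1 KO ESC libraries with DMSO and at 4.69 and 5.91 CPM in LSD1 KO without DOX, all inside the range of the 6 libraries above. Stag3 was at 78.8 and 84.3 CPM with DMSO and at 47.2 and 51.7 CPM without DOX, above every one of the 6 LSD1 KO ESC libraries, so its lower level was not seen in each set of LSD1 KO ESCs. Dazl was at 16.9 and 16.9 CPM with DMSO and at 29.5 and 26.7 CPM without DOX. Experiment and agent cannot be told apart in these values.

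In LSD1 CI ESC 5 genes were called, all higher, against 3.24% of all genes in either direction and 2.08% higher. Brdt, Hormad1 and Stk31 were called higher in LSD1 KO ESC too, and so was Smc1b with the alignment as a term (1.98, with LSD1 CI at 2.20). Dazl stood at 31.0, 50.6, 29.1 and 47.6 CPM in LSD1 CI ESC 1 to 4, above all 11 WT ESC libraries (log2 fold change 2.20 ± 0.17, adjusted p = 8.92e-13, edgeR). Smc1b stood at 20.7, 38.2, 16.6 and 28.3 CPM, against at most 9.71 CPM in WT ESC, with a log2 fold change of 2.48 ± 0.34. Libraries 2 and 4 were higher than libraries 1 and 3 for both genes. Over all genes the mean squared difference, in units of counting error, was 8.93 between libraries 1 and 3 and 8.42 between 2 and 4. It was 34.6 between 1 and 2 and 36.3 between 3 and 4. The RCOR2 KO ESC and RCOR1/2 DKO ESC libraries fell into pairs as well. The tests treat all libraries of a group as separate, and no pair was left out together.

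Brdt rose in LSD1 CI ESC as well, but to 1.29, 1.31, 1.04 and 0.605 CPM, with the lowest library inside the WT range (log2 fold change 2.37 ± 0.40). Hormad1 rose to 54.5, 68.8, 51.3 and 61.2 CPM (log2 fold change 1.95 ± 0.18), clear of the WT libraries. Stk31 rose to 15.0, 28.6, 14.5 and 28.3 CPM (log2 fold change 1.28 ± 0.17), with libraries 2 and 4 again the higher pair. Stag3 was at 118, 82.5, 96.9 and 75.2 CPM and Rec8 at 8.47 to 11.3 CPM, and both overlapped with WT ESC. With only the 8 WT ESC libraries of the same alignment the 5 log2 fold changes were 2.20 for Smc1b, 2.11 for Brdt, 2.10 for Dazl, 1.79 for Hormad1 and 1.44 for Stk31. All 5 were called, where 273 of 17435 genes tested were called higher and 269 lower.

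The direct comparison of LSD1 KO ESC with LSD1 CI ESC called 4 of the 10 genes, against 16.0% of all genes. Brdt was higher in LSD1 KO ESC (log2 fold change 2.56 ± 0.48), while Dazl was lower by a log2 fold change of -1.66 ± 0.20, Smc1b by -1.69 ± 0.39 and Stag3 by -1.64 ± 0.15. The alignment differs between these groups. With the alignment as a term, which WT libraries of both alignments make possible, Brdt was at 3.80, Dazl at -1.26 and Stag3 at -1.26, all called, whereas Smc1b was at -0.22 and no longer called. Sycp1 became called, at 3.23, although its level was lower in every LSD1 KO ESC library (0.508 to 0.924 CPM) than in LSD1 CI ESC (1.26 to 2.16 CPM). The alignment term is set by the WT ESC libraries, among which Sycp1 is split, so no direction is drawn from this call. Hormad1, at -0.13, and Stk31, at 0.05, were not called. LSD1 KO ESCs of the other experiments, which had contig counts, did not show each of these lower levels. Stag3 was at 78.8 and 84.3 CPM with DMSO and 47.2 and 51.7 without DOX (LSD1 CI ESC 75.2 to 118). Smc1b was at 15.8 and 15.4 CPM with DMSO and 21.3 and 39.1 without DOX (LSD1 CI ESC 16.6 to 38.2). Dazl was at 16.9 and 16.9 CPM with DMSO and 29.5 and 26.7 without DOX (LSD1 CI ESC 29.1 to 50.6).

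Deletion of either CoREST scaffold alone called none of the 10 genes in ESCs by edgeR. In RCOR1 KO ESC, where 0.142% of all genes were called, 5 of the 10 had an unadjusted p under 0.05 and DESeq2 called 1, Sycp1. Sycp1 was there at 0.412 to 0.819 CPM, inside the lower cluster of WT ESC libraries (0.155 to 1.06 CPM), so this call depends on the WT libraries of the higher cluster. In RCOR2 KO ESC, where 3.85% were called, 1 had an unadjusted p under 0.05 and DESeq2 called 0. Brdt stood at 0.149, 0.206, 0.430 and 0.599 CPM in RCOR1 KO ESC and at 0.178, 0.10, 0.104 and 0.259 CPM in RCOR2 KO ESC, inside the WT range.

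Without both scaffolds 6 genes were called, where 17.7% of all genes were. Brdt was at 6.2, 4.82, 7.02 and 5.16 CPM in RCOR1/2 DKO ESC, a log2 fold change of 4.71 ± 0.39 (adjusted p = 3.17e-13, edgeR) and a level that lay inside the range of LSD1 KO ESC. Smc1b rose to 21.4, 24.0, 39.0 and 31.6 CPM (log2 fold change 2.53 ± 0.34). Dazl rose to 37.6, 32.6, 40.9 and 40.6 CPM (log2 fold change 2.03 ± 0.17), above all LSD1 KO ESC libraries and inside the range of LSD1 CI ESC.

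Hormad1 and Stk31 rose by log2 fold changes of 1.6 ± 0.19 and 1.08 ± 0.17 in RCOR1/2 DKO ESC. Stag3 fell by 2.00 ± 0.16 on the log2 scale, to 20.9, 20.2, 22.2 and 18.5 CPM, below every other untreated ESC library. Against RCOR2 KO ESC, which separates the loss of the second scaffold, 5 genes were called where 14.9% of all genes were, Brdt at 4.92 ± 0.58, Smc1b at 2.51 ± 0.46, Dazl at 1.84 ± 0.22, Hormad1 at 1.35 ± 0.24 and Stag3 at -2.20 ± 0.18. The comparisons of LSD1 KO, LSD1 CI and RCOR1/2 DKO with WT ESC share the same WT libraries.

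Markers of other cells moved in these lines. The 6 fibroblast genes summed to 1.75 to 4.94 CPM in WT ESC, 15.3 to 23.3 in LSD1 KO ESC and 33.2 to 42.5 in RCOR1/2 DKO ESC, 3 of the 4 tested being called higher in both, with Postn and Dcn at 0 in LSD1 KO ESC. LSD1 CI ESC stayed at 2.77 to 3.91 CPM. The 8 germ layer genes summed to 1.38 to 10.1 CPM in WT ESC, 11.6 to 14.8 in LSD1 KO ESC and 8.01 to 13.6 in RCOR1/2 DKO ESC, with 2 of the 7 tested called higher and 2 lower in LSD1 KO ESC and 2 higher in RCOR1/2 DKO ESC. The 6 genes of 2-cell-like cells summed to 0 to 3.0 CPM in WT ESC, 1.37 to 5.94 in LSD1 KO ESC, 0.517 to 6.98 in LSD1 CI ESC and 4.94 to 7.80 in RCOR1/2 DKO ESC, with 2 of the 5 tested called higher in LSD1 KO ESC and 3 in RCOR1/2 DKO ESC, Tcstv1 at 0 in all 4 groups and Tcstv3 at 0 in LSD1 KO ESC. Their part in the results was not tested.

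MLL4 loss lowered 4 genes and raised none, where 10.7% of all genes were called. Smc1b was at 0.455 and 0.192 CPM in MLL4 KO ESC, under all 11 WT ESC libraries (1.25 to 9.71 CPM), and fell by 3.90 ± 0.77 on the log2 scale (adjusted p = 0.000165, edgeR). Dazl was at 1.11 and 2.78 CPM and fell by 2.19 ± 0.31. Stag3, at 34.8 and 40.5 CPM, fell by 1.07 ± 0.20 and Stk31, at 4.76 and 4.46 CPM, fell by 1.00 ± 0.27. All 4 lay under the WT range, but this group has 2 libraries: without MLL4 KO ESC 1 the calls of Stk31 and Stag3 were lost, and without MLL4 KO ESC 2 those of Smc1b and Stk31, leaving 2 calls each time. With the alignment as a term Stk31, at -0.85, was no longer called and Sycp3, at -2.01, was.

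Adding loss of LSD1 to loss of MLL4 raised 5 genes over MLL4 KO ESC, where 7.9% of all genes were called. Smc1b was at 5.86, 7.91, 1.44 and 3.88 CPM in MLL4/LSD1 DKO ESC, a log2 fold change of 3.89 ± 0.81 over MLL4 KO ESC and of -0.01 ± 0.38 from WT ESC. Hormad1 reached 80.4, 79.6, 37.7 and 48.4 CPM, above MLL4 KO ESC (9.56 and 8.77 CPM) by a log2 fold change of 2.75 ± 0.34 and above all WT ESC libraries by 1.96 ± 0.18. Sycp3 rose by 2.29 ± 0.66, Stag3 by 1.19 ± 0.22 and Stk31 by 1.08 ± 0.29, and the count ran from 2 to 5 as single libraries were left out, with 2 calls without MLL4 KO ESC 1, 3 without MLL4 KO ESC 2 and 3 without MLL4/LSD1 DKO ESC 2.

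Dazl stayed low, at 3.70, 3.08, 3.68 and 3.45 CPM in MLL4/LSD1 DKO ESC, and remained lower than WT ESC by a log2 fold change of -1.34 ± 0.21. Against WT ESC 3 genes were called in MLL4/LSD1 DKO ESC, Hormad1 and Brdt higher and Dazl lower, where 14.2% of all genes were called. Brdt there was at 0.288, 0.904, 0.345 and 0.809 CPM (log2 fold change 1.5 ± 0.45), overlapping with WT ESC and below every library of LSD1 KO ESC, and was not called with the alignment as a term (1.22, adjusted p = 0.0297, edgeR).

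In MLL4KO/LSD1CI ESC 1 gene was called against WT ESC, where 14.1% of all genes were. This was Smc1b, at 0.461, 0.570, 0.695 and 0.611 CPM, which fell by 2.99 ± 0.51 on the log2 scale. Against MLL4 KO ESC edgeR called 0 of the 10, where 0.125% of all genes were called. Of the 10, 3 had an unadjusted p under 0.05, and DESeq2 called 2, Dazl and Hormad1.

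Markers of other cells moved in the MLL4 lines as well. The 2-cell-like genes were all at 0 in MLL4 KO ESC and summed to 0 to 0.115 CPM in MLL4/LSD1 DKO ESC and 0 to 0.107 CPM in MLL4KO/LSD1CI ESC, and against WT ESC 3 of 5 tested were called lower in MLL4/LSD1 DKO ESC. The fibroblast genes summed to 0.708 to 0.767 CPM in MLL4 KO ESC, 4.94 to 8.41 in MLL4/LSD1 DKO ESC and 0.577 to 3.05 in MLL4KO/LSD1CI ESC. Of the 4 tested, 1 was called lower than in WT ESC in the first, 1 higher in the second and 2 lower in the third. The germ layer genes summed to 1.63 to 5.54 CPM over the 3 lines, with 1 of 7 tested called lower in each. Their part in the results was not tested.

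**Figure D2:**
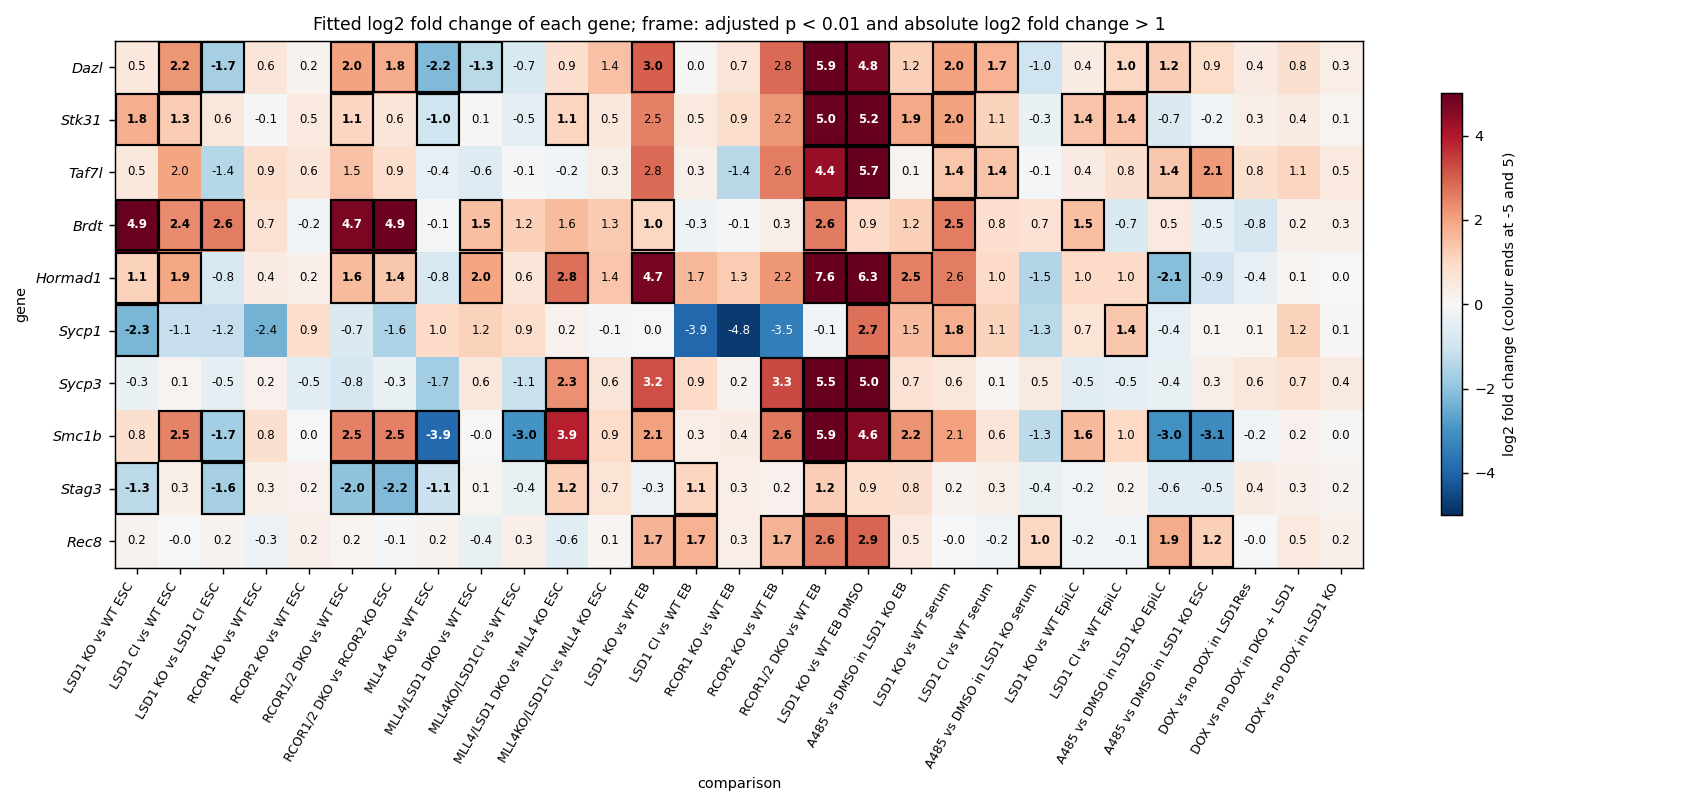
Fitted log2 fold change of each gene (vertical axis) in each comparison of genotype or treatment (horizontal axis), with colour ending at -5 and 5. Frames and bold numbers mark calls, adjusted p below 0.01 with a log2 fold change over 1 in size. The column of RCOR1/2 DKO against WT in EBs holds 9 framed cells, and the columns for DOX hold none.

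WT cells turned most of these genes down on becoming EBs, and the mutants differed in how far that went. From WT ESC to WT EB 8 of the 10 were called, 7 lower and 1 higher, where 36.6% of all genes were. Hormad1 went from 8.01 to 25.7 CPM in WT ESC to 0 to 0.182 CPM (median 0.0797) in the 7 WT EB libraries and fell by 7.42 ± 0.45 on the log2 scale (adjusted p = 1.53e-12, edgeR). Dazl fell by 5.56 ± 0.30, to 0.0558 to 0.310 CPM, and Stk31 by 4.82 ± 0.51, to 0 to 1.15 CPM. These 3 were close to silent in WT EBs.

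Sycp3 fell by 2.93 ± 0.47, Smc1b by 2.49 ± 0.43, Rec8 by 2.10 ± 0.23 and Stag3 by 2.03 ± 0.15 on the log2 scale from WT ESC to WT EB. Brdt went the other way, to 0.946 to 1.79 CPM, above all WT ESC libraries (log2 fold change 2.5 ± 0.45). Sycp1 was again split, at 8.39 to 11.8 CPM in WT EB 1 to 3 and 0 to 0.122 CPM in WT EB 4 to 7. In bulk RNA, fewer cells that express a gene and less RNA per cell cannot be told apart.

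RCOR1/2 DKO EBs held most of these genes far above WT EBs. Of the 10, 9 were called higher than in WT EB, where 26.4% of all genes were called and 14.1% were called higher. Hormad1 was at 13.2, 20.4, 25.1 and 18.6 CPM in RCOR1/2 DKO EB 1 to 4, a log2 fold change of 7.61 ± 0.65 over WT EB (adjusted p = 3.73e-09, edgeR). Dazl was at 9.47, 12.3, 14.3 and 12.0 CPM (log2 fold change 5.89 ± 0.65) and Smc1b at 36.0, 57.6, 68.5 and 54.2 CPM (5.86 ± 0.39). None of these ranges touched the WT EB range.

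Sycp3 rose to 16, 27.5, 24.3 and 22.7 CPM in RCOR1/2 DKO EB (log2 fold change 5.52 ± 0.45), above every WT ESC library as well (at most 7.18 CPM). Stk31 rose by 4.96 ± 0.74, Taf7l by 4.36 ± 0.82, Brdt by 2.59 ± 0.20, Rec8 by 2.56 ± 0.31 and Stag3 by 1.23 ± 0.23 on the log2 scale, and of these only Stag3 overlapped with WT EB, at 26.8 CPM in the lowest RCOR1/2 DKO EB library against 27.3 CPM in the highest WT EB library. Sycp1 was at 2.55, 4.61, 4.89 and 3.80 CPM, between the clusters of WT EB, and was not called. Against WT EB 4 to 7 alone it was called higher, at 6.39, and the other 9 were called against either set of WT EB libraries.

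LSD1 KO EBs held 6 of the 10 higher than WT EB, where 13.7% of all genes were called and 8.28% higher. Hormad1 was at 3.14 and 1.99 CPM (log2 fold change 4.73 ± 0.69), Sycp3 at 5.15 and 3.81 CPM (3.22 ± 0.50) and Dazl at 2.27 and 0.885 CPM (3.0 ± 0.72). Smc1b rose by 2.07 ± 0.44, Rec8 by 1.69 ± 0.38 and Brdt by 1.04 ± 0.25. All 6 lay above the WT EB libraries, and without LSD1 KO EB 1 only Hormad1 and Sycp3 were called. Against WT EB 1 to 3 alone the calls of Dazl (adjusted p = 0.026), Smc1b (0.0207) and Rec8 (0.0251, edgeR) were lost and Stk31, at 3.37, was called. Against WT EB 4 to 7 alone Brdt, at 0.94, was lost and Sycp1, at 6.55, and Taf7l, at 3.79, were called.

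A second set of EBs carried DMSO and gave a larger difference for most genes. In LSD1 KO EB with DMSO 8 of the 10 were called higher than in WT EB with DMSO, where 18.8% of all genes were called and 11.7% higher. Hormad1 was at 13.7 and 9.43 CPM against 0.103 and 0.173 CPM (log2 fold change 6.31 ± 0.35, adjusted p = 9.93e-08, edgeR). Taf7l rose by 5.68 ± 0.79, Stk31 by 5.20 ± 0.36, Sycp3 by 5.03 ± 0.29, Dazl by 4.75 ± 0.49, Smc1b by 4.61 ± 0.32, Rec8 by 2.91 ± 0.28 and Sycp1 by 2.74 ± 0.51. In WT EB with DMSO the counts per library were 0 to 3 for Taf7l, 6 to 8 for Stk31, 5 to 7 for Hormad1 and 2 to 12 for Dazl. Fold changes over such counts are imprecise in size. Stag3, at 36.1 and 30.6 CPM against 16.9 and 17.7 CPM, stayed under the size threshold at 0.86 ± 0.14.

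Markers moved in this set too. The 5 pluripotency genes went from 42.6 to 47 CPM in WT EB with DMSO to 533 to 565 CPM in LSD1 KO EB with DMSO, all 5 called higher, and the 2-cell-like genes from 0 to 0.0411 CPM to 18.0 to 18.5 CPM, with 5 of 5 tested higher. The germ layer genes went from 441 to 582 CPM to 296 to 360 CPM, 5 of 8 lower and 1 higher, and the fibroblast genes from 73 to 85.1 CPM to 22.5 to 26.4 CPM, 4 of 6 lower and 2 higher. Their part was not tested.

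In LSD1 CI EBs 2 of the 10, both cohesin genes, were called higher than in WT EB, where 2.54% of all genes were called. Rec8 was at 5.91, 6.92, 7.66 and 12.1 CPM against 1.14 to 4.38 CPM in WT EB (log2 fold change 1.75 ± 0.31). It was not called against WT EB 1 to 3 alone (1.34, adjusted p = 0.0131, edgeR), where Sycp1 was called lower, at -5.16. There 247 of 17860 genes tested were called higher and 1053 lower. Stag3 was at 36.8, 36.0, 44.6 and 46.5 CPM against 13.1 to 27.3 CPM (log2 fold change 1.07 ± 0.23), and was not called without LSD1 CI EB 3, without LSD1 CI EB 4 or against WT EB 4 to 7 alone. Dazl in LSD1 CI EB was above the WT EB range in library 1 and inside it in libraries 2 to 4, at 0.184, 0.0646 and 0.0615 CPM.

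In the libraries labelled RCOR2 KO EB 3 genes were called, where 5.28% of all genes were. Sycp3 was at 2.97 and 7.0 CPM (log2 fold change 3.31 ± 0.50), Smc1b at 4.39 and 7.45 CPM (2.64 ± 0.43) and Rec8 at 5.75 and 11.5 CPM (1.71 ± 0.38), and without library 2 none was called. Against WT EB 1 to 3 alone Rec8 was not called (1.30, adjusted p = 0.0303, edgeR). In RCOR1 KO EB edgeR called 0 of the 10, where 0.00558% of all genes were called, with 1 of the 10 at an unadjusted p under 0.05 and 0 called by DESeq2. Against WT EB 1 to 3 alone, Sycp1 was called lower in RCOR1 KO EB, with a log2 fold change of -6.01, where 87 of 17860 genes tested were called higher and 704 lower.

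Marker genes moved with these results. The 5 pluripotency genes summed to 18.3 to 189 CPM in WT EB, 552 to 606 in LSD1 KO EB, 232 to 330 in the libraries labelled RCOR2 KO EB and 1100 to 1181 in RCOR1/2 DKO EB, with 5 of 5 called higher in RCOR1/2 DKO EB and 3 of 5 in LSD1 KO EB. The 8 germ layer genes summed to 210 to 720 CPM in WT EB and 18.8 to 24.3 in RCOR1/2 DKO EB, where 7 of 8 were called lower and 1 higher. In LSD1 KO EB they summed to 421 to 531 CPM, with 4 lower and 1 higher, and in LSD1 CI EB to 312 to 828 CPM with 0 of 8 called by edgeR. In the libraries labelled RCOR2 KO EB they summed to 59.5 to 104 CPM, with 5 lower and 1 higher.

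The 2-cell-like genes also moved, from 0 to 0.266 CPM in WT EB to 11.5 to 30.1 in LSD1 KO EB and 61.2 to 99.0 in RCOR1/2 DKO EB, with 5 of 5 tested called higher in both and Tcstv1 at 0 in all 3 groups. In the libraries labelled RCOR2 KO EB they summed to 2.60 to 11.7 CPM, with 4 of 5 called higher. Primordial germ cell factors summed to 113 to 171 CPM in WT EB, 83.9 to 104 in LSD1 KO EB and 200 to 237 in RCOR1/2 DKO EB. Of the 8, 5 were called higher and 1 lower in RCOR1/2 DKO EB (median log2 fold change 2.42) and 1 higher and 2 lower in LSD1 KO EB (median 1.21). Kit, at a mean of 38.3 CPM in LSD1 KO EB against 81.2 in WT EB, and Prdm1, at 14.3 against 48.4, had lower means, the other genes of the list higher ones. In the EBs with DMSO 4 were called higher and 2 lower in LSD1 KO, and A485 called 4 higher and 0 lower over DMSO. In RCOR1/2 DKO EB Dppa3 rose by 5.74 ± 0.80, Ddx4, an RNA helicase of germ cells, rose by 5.43 ± 0.33, and the 1 that fell was Prdm1, which specifies primordial germ cells, by 1.32 ± 0.19. The part of these cell types in the results was not tested.

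**Figure D3:**
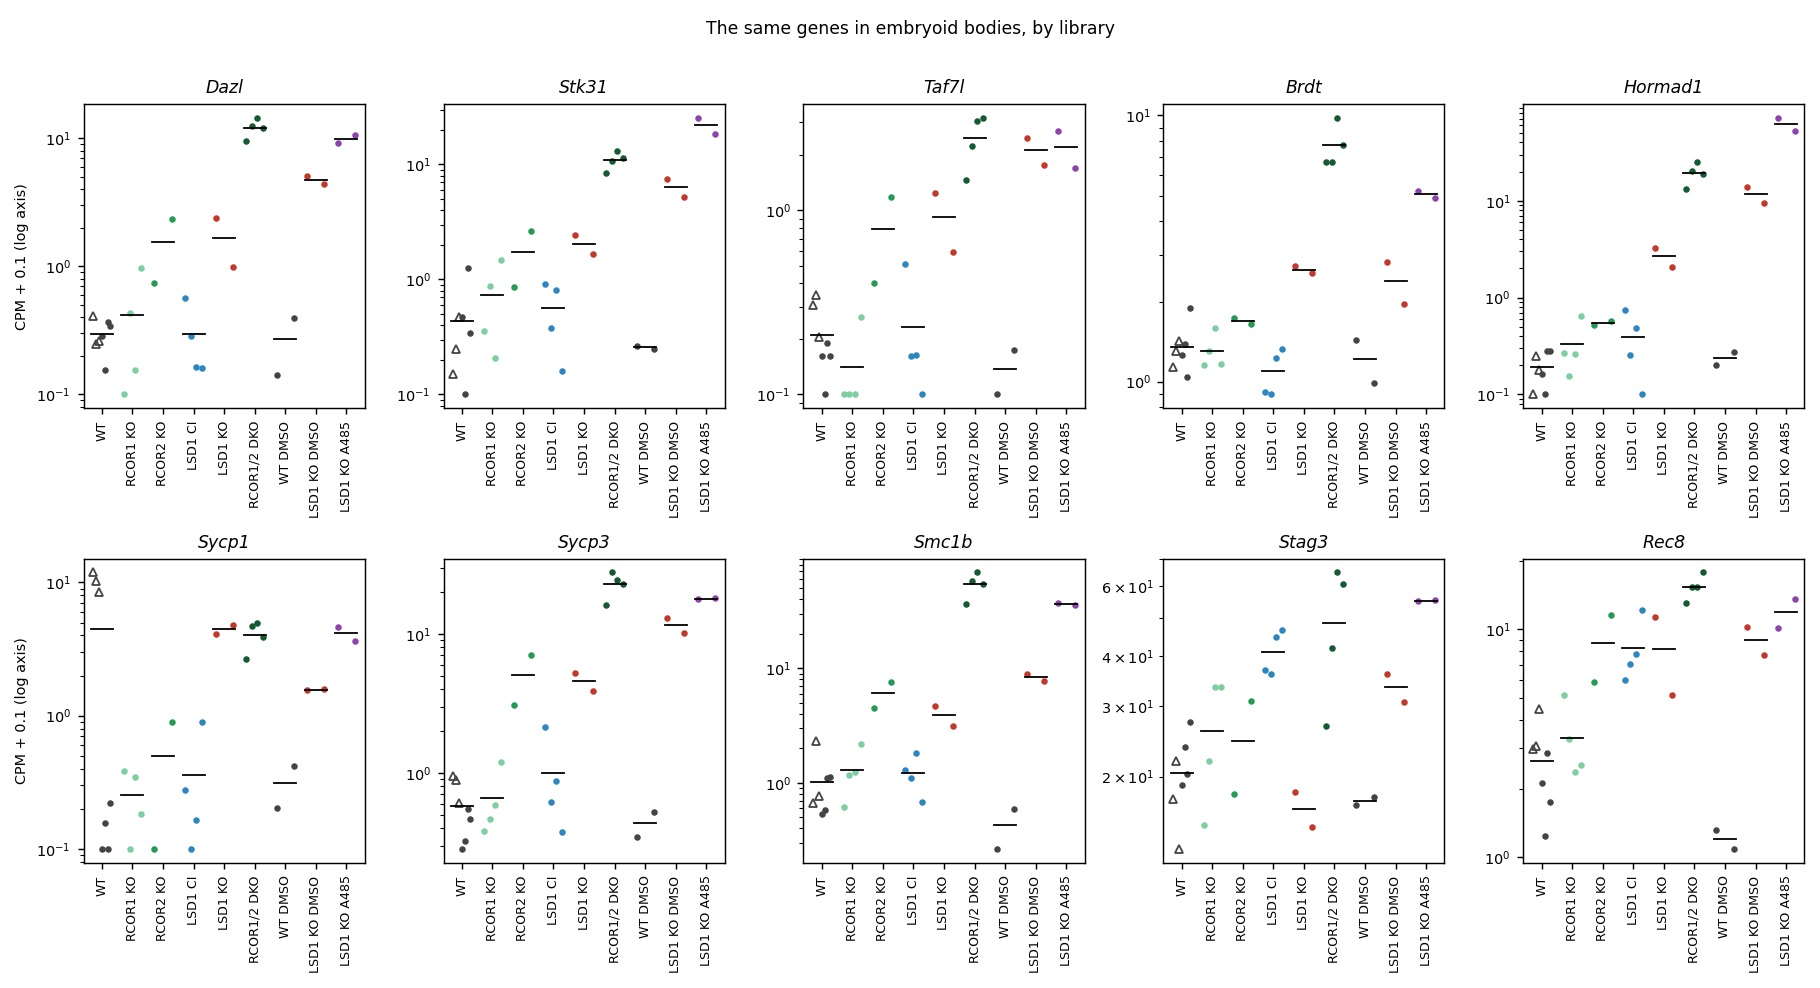
Level of each gene in EBs, CPM + 0.1 on a log axis, for the untreated lines, then WT and LSD1 KO with DMSO and LSD1 KO with A485. Points are libraries, open triangles WT EB 1 to 3, and short lines the group means. Hormad1 reads 0 to 0.182 CPM in WT EB and 13.2 to 25.1 CPM in RCOR1/2 DKO EB.

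Whether a genotype acted differently in EBs and ESCs was tested directly, by the difference of the 2 log2 fold changes against WT. For RCOR1/2 DKO 8 genes differed, 7 with a larger rise in EBs and Brdt with a smaller one, where 20.5% of all genes differed. The difference was 6.27 ± 0.68 for Sycp3, which was not raised in RCOR1/2 DKO ESC (log2 fold change -0.83 ± 0.40), and 5.92 ± 0.50 for Hormad1. For Stag3 it was 3.15 ± 0.27, with Stag3 lower than WT in ESCs and higher in EBs.

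For LSD1 KO 6 genes differed, 5 more positive in EBs and Brdt less, where 18.9% of all genes differed. Sycp3 differed by 3.52 ± 0.65, Hormad1 by 3.54 ± 0.54 and Dazl by 2.42 ± 0.54, and Brdt by -3.94 ± 0.64. For LSD1 CI 3 genes differed, where 3.25% of all genes did: Rec8 by 1.74 ± 0.34, Smc1b by -2.14 ± 0.57 and Brdt by -2.65 ± 0.53. Without LSD1 KO EB 1 the LSD1 KO count fell to 3, and the Smc1b difference for LSD1 CI was lost when any of 6 single LSD1 CI libraries was left out. With the alignment as a term the Smc1b difference for LSD1 CI was not called either (-1.86, adjusted p = 0.0148, edgeR), nor was that of Stag3 for LSD1 KO (0.72, adjusted p = 0.067).

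Shorter differentiation gave a different order of states. From WT ESC to WT in serum 5 genes were called, where 20.9% of all genes were. Taf7l was at 2.09 and 1.52 CPM in serum (log2 fold change 3.04 ± 0.81) and Brdt at 1.02 and 1.2 CPM (2.44 ± 0.61), both above WT ESC. Hormad1 fell by 2.40 ± 0.55, Stag3 by 2.05 ± 0.25 and Dazl by 1.78 ± 0.39, and without WT serum DMSO 2 only Stag3 was called. Serum and EpiLC libraries carried DMSO, which the WT ESC libraries did not, so the state and the solvent cannot be told apart.

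From WT ESC to WT EpiLC 2 genes were called, Taf7l (1.65 and 1.48 CPM, log2 fold change 2.94 ± 0.81) and Brdt (1.08 and 0.947 CPM, 2.42 ± 0.62), where 16.7% of all genes were. Neither was called when 1 EpiLC library was left out, or when the WT ESC libraries of the other alignment were. Hormad1 in WT EpiLC, at 16.6 and 14.8 CPM, and Dazl, at 12.3 and 9.14 CPM, were inside the WT ESC range, unlike in WT EBs. Pluripotency genes summed to 640 to 644 CPM in serum and 523 to 576 CPM in EpiLCs.

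In serum LSD1 KO raised 5 genes over WT, where 9.55% of all genes were called. Brdt was at 5.95 and 7.05 CPM against 1.02 and 1.2 CPM (log2 fold change 2.54 ± 0.34), Dazl at 12.2 and 8.42 CPM against 3.16 and 1.87 CPM (2.03 ± 0.32) and Stk31 at 20.2 and 17.5 CPM against 6.06 and 3.21 CPM (2.02 ± 0.30). Sycp1 rose by 1.83 ± 0.38 and Taf7l by 1.39 ± 0.27. The count was 2 without LSD1 KO serum DMSO 1 and 3 without LSD1 KO serum DMSO 2 or WT serum DMSO 2.

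LSD1 CI in serum raised 2 genes, where 2.99% of all genes were called, Dazl to 9.48 and 6.72 CPM (log2 fold change 1.72 ± 0.32) and Taf7l to 5.08 and 4.53 CPM (1.44 ± 0.27). The count was 1 without LSD1 CI serum DMSO 1, 4 without WT serum DMSO 1 and 0 without WT serum DMSO 2. In LSD1 KO in serum 3 of 5 pluripotency genes were called higher, with sums of 640 to 644 CPM in WT and 888 to 962 CPM in LSD1 KO, as were 4 of 8 primordial germ cell factors (53 to 62.8 CPM and 146 to 177 CPM) and 2 of 8 germ layer genes. In LSD1 CI 1 of the 5, 3 of the 8 and 1 of the 8 were called higher. The 2-cell-like genes summed to 9.52 to 40.7 CPM in WT serum, 374 to 440 in LSD1 KO and 249 to 366 in LSD1 CI, of which 1 of 5 tested was called higher in each. Their part was not tested.

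In EpiLCs LSD1 KO raised 3 genes, where 9.49% of all genes were called. Smc1b was at 18.3 and 12.9 CPM against 5.91 and 4.04 CPM in WT (log2 fold change 1.62 ± 0.30), Brdt at 3.49 and 2.41 CPM against 1.08 and 0.947 CPM (1.49 ± 0.31) and Stk31 at 24.2 and 25.4 CPM against 10.2 and 8.07 CPM (1.41 ± 0.13). LSD1 CI raised 3 as well, where 2.15% of all genes were called. Stk31 was at 22.9 and 25.5 CPM (log2 fold change 1.44 ± 0.13), Sycp1 rose by 1.36 ± 0.23 and Dazl by 1.02 ± 0.17, and Brdt was at 0.609 and 0.576 CPM, under both WT EpiLC libraries and not called. Only Stk31 was called without LSD1 KO EpiLC DMSO 1, LSD1 CI EpiLC DMSO 2 or WT EpiLC DMSO 2, in the comparison that each belongs to.

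In LSD1 KO EpiLC 4 of 5 pluripotency genes were called higher than in WT, with sums of 523 to 576 CPM in WT and 844 to 848 CPM in LSD1 KO, as were 4 of 8 primordial germ cell factors (43.0 to 43.3 CPM and 81.8 to 83.7 CPM) and 2 of 7 germ layer genes tested, while 2 of 5 fibroblast genes were lower. In LSD1 CI EpiLC 1 primordial germ cell factor was called higher. Their part was not tested.

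**Figure D4:**
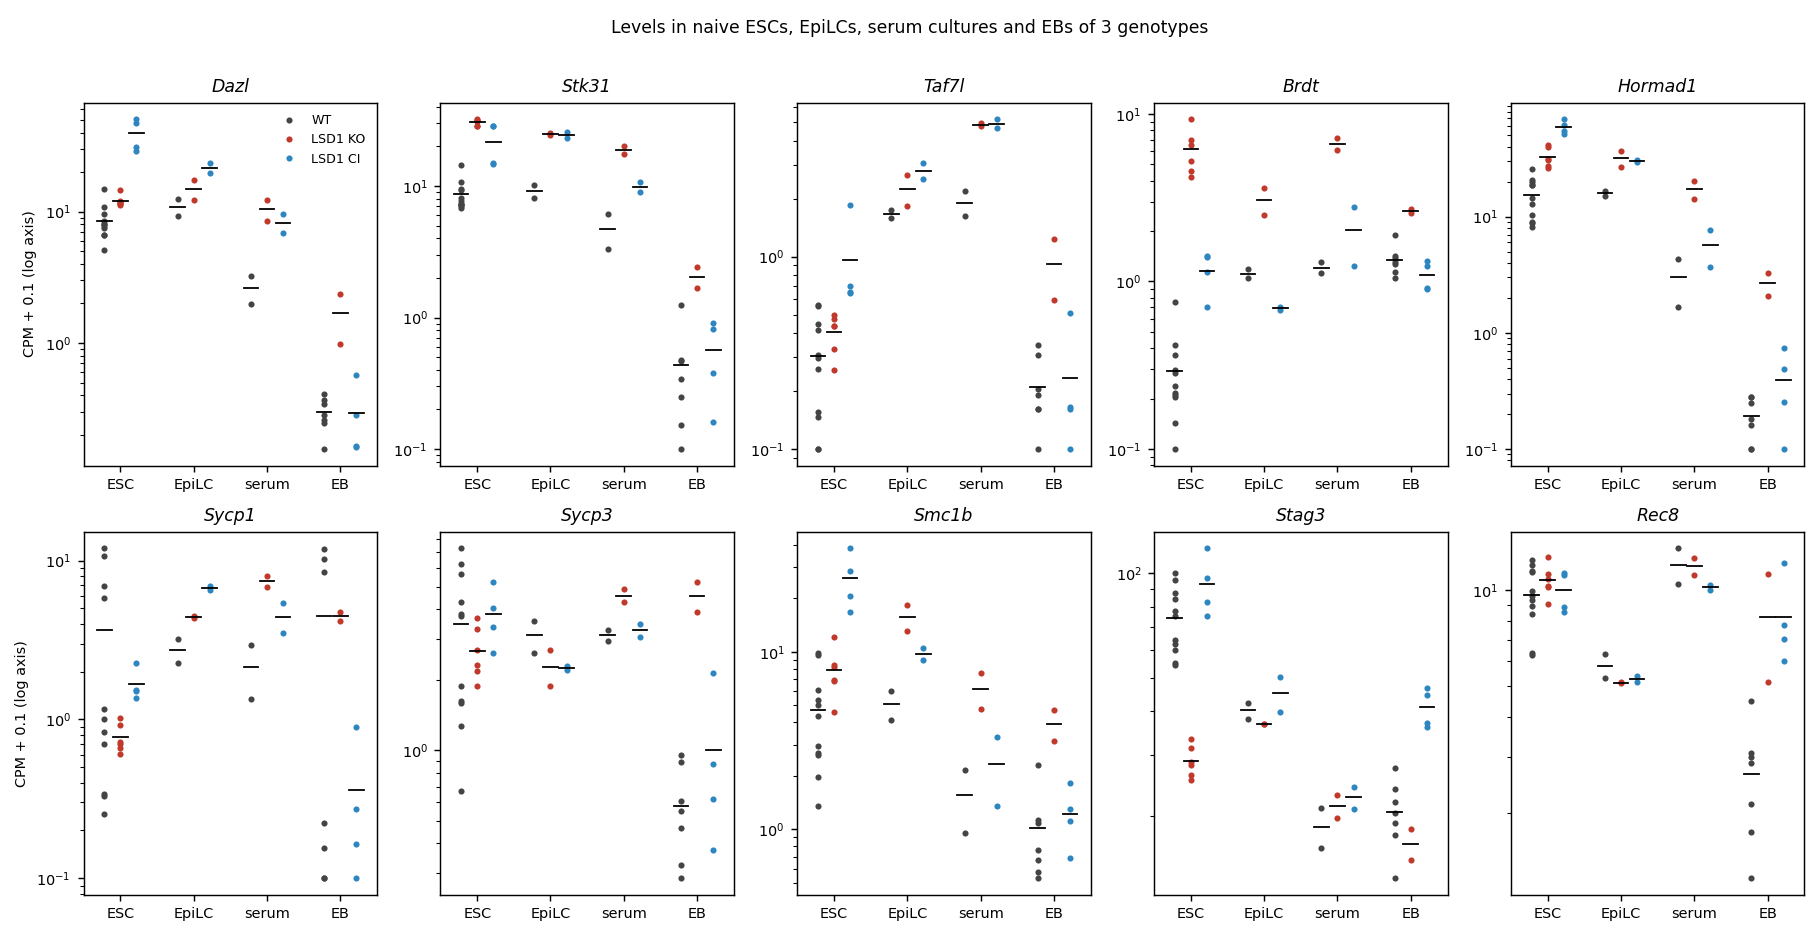
Level of each gene, CPM + 0.1 on a log axis, in naive ESCs, EpiLCs, serum cultures and EBs, by genotype (WT, LSD1 CI and LSD1 KO). Points are libraries and short lines the group means. Dazl, Hormad1 and Stk31 drop furthest in WT EBs, while Brdt in WT is lowest in ESCs.

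Inhibiting p300 and CBP acted on individual genes in opposite directions. In LSD1 KO ESC 3 genes were called with A485 against DMSO, where 17.6% of all genes were. Smc1b fell from 15.8 and 15.4 CPM to 1.63 and 2.02 CPM (log2 fold change -3.15 ± 0.17, adjusted p = 9.63e-12, edgeR). Taf7l rose from 0.659 and 0.646 CPM to 2.78 and 3.19 CPM (2.13 ± 0.31) and Rec8 from a mean of 18.4 CPM to 45.5 and 42.9 CPM (1.21 ± 0.09). Brdt, at 3.85 and 3.34 CPM with A485 against 4.76 and 5.03 CPM with DMSO, was not called (log2 fold change -0.51 ± 0.20).

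In LSD1 KO EpiLC 5 genes were called with A485, where 17.6% of all genes were. Smc1b fell from 18.3 and 12.9 CPM to 2.87 and 1.28 CPM (log2 fold change -3.02 ± 0.33) and Hormad1 from 36.5 and 26.5 CPM to 8.59 and 6.87 CPM (-2.13 ± 0.15). Rec8 rose from 5.0 and 5.04 CPM to 21.8 and 17.7 CPM (1.86 ± 0.17), Taf7l by 1.37 ± 0.26 and Dazl by 1.24 ± 0.16. In serum 1 gene was called, where 12.5% of all genes were. Rec8 rose there from 12.5 and 11.1 CPM to 27.9 and 23.5 CPM (1.04 ± 0.17), and it was not called without LSD1 KO serum A485 1 or without LSD1 KO serum DMSO 2.

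In LSD1 KO EB with A485 3 genes were called, all higher, where 13.8% of all genes were called. Hormad1 rose from 13.7 and 9.43 CPM to 71.5 and 52.8 CPM (log2 fold change 2.52 ± 0.21), Smc1b from 8.89 and 7.68 CPM to 37.1 and 35.7 CPM (2.23 ± 0.23) and Stk31 from 7.37 and 5.07 CPM to 25.2 and 18.3 CPM (1.90 ± 0.24). Smc1b and Hormad1 thus moved up with A485 in EBs and, in EpiLCs, down. No test compared the states. The A485 dose differed between ESCs and EBs and is not given for EpiLCs, so state and dose cannot be told apart.

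Pluripotency genes moved with A485 as well, from 2353 to 2381 CPM down to 1070 to 1087 CPM in LSD1 KO ESC and from 533 to 565 CPM up to 1238 to 1262 CPM in LSD1 KO EB. The germ layer genes in LSD1 KO EB went from 296 to 360 CPM down to 19.6 to 20.4 CPM, with 4 of 8 called lower. In EpiLCs and in serum 2 of 5 pluripotency genes were called lower each. The 2-cell-like genes were lower with A485 in every state, 3 of 3 tested in ESCs, 4 of 5 in EBs, 4 of 4 in EpiLCs and 2 of 5 in serum, and their sum in serum went from 374 to 440 CPM to 29.5 to 31.2 CPM. Fibroblast genes were lower too, 2 of 2 tested in ESCs, 3 of 6 in EBs, 2 of 5 in EpiLCs and 1 of 6 in serum. The part of these markers was not tested.

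Putting LSD1 back called none of the 10 genes. The level of Kdm1a RNA does not give that of the protein. By Western blot, the paper found less LSD1 protein in LSD1Res with DOX than in WT ESCs. In LSD1Res, where DOX took Kdm1a from 24.3 to 1607 CPM on average, 2.37% of all genes were called and 0 of the 10 by edgeR, with 2 at an unadjusted p under 0.05 and 0 by DESeq2. Brdt was at 2.95, 3.69, 5.45 and 4.76 CPM without DOX and at 2.22, 2.57, 1.75 and 2.73 CPM with it, so that every library was lower with DOX than its same-numbered partner (log2 fold change -0.82 ± 0.37, adjusted p = 0.168). Stag3 was at 44.6, 47.0, 26.0 and 40.4 CPM without DOX and at 52.1, 42.5, 43.3 and 63.1 CPM with it.

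Same-numbered libraries pair in this experiment, and with the replicate number as a block the Brdt difference was -0.80 ± 0.22 (adjusted p = 0.0141) and that of Hormad1 -0.42 ± 0.06 (adjusted p = 0.000303), under the size threshold. In DKO + LSD1 edgeR called 0 of the 10 without the block, where 0.332% of all genes were called, with 4 at an unadjusted p under 0.05 and 1, Sycp1, called by DESeq2. With the block 2 were called, Sycp1 at 1.17 ± 0.14 and Taf7l at 1.10 ± 0.24, where 119 of 15415 genes tested were called higher and 88 lower. Sycp1 was at 4.69, 4.14, 7.96 and 6.13 CPM without DOX and at 11.9, 9.74, 12.2 and 17.3 CPM with it. In LSD1 KO cells without the transgene DOX called 0 of the 10, where 0.0178% of all genes were called, with 0 at an unadjusted p under 0.05 and 0 by DESeq2.

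Across the 29 comparisons of genotype or treatment the genes had different records. Dazl was called higher in 10 and lower in 3, Smc1b higher in 10 and lower in 5, and Hormad1 and Stk31 each higher in 10 and lower in 1. Brdt was called higher in 10 and lower in none, Rec8 higher in 8, Taf7l higher in 6 and Sycp3 higher in 5, also with none lower. Stag3 was called lower more often than higher, 5 against 3. Many of these comparisons share control libraries.

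Over the 34 group means of log2(CPM + 0.1), which also reflect the shared libraries and states, Dazl, Hormad1 and Stk31 ran closest together. Pearson's r was 0.935 between Dazl and Stk31, 0.933 between Hormad1 and Stk31 and 0.886 between Dazl and Hormad1. The lowest was -0.333, between Brdt and Stag3. Among 16444 other genes the closest to Hormad1 was Ubxn10 (r = 0.976), to Stk31 Tex11 (0.965), which promotes meiotic crossovers, to Dazl Hspb1 (0.944) and Terb2 (0.943), to Taf7l Dmrtb1 (0.931), to Brdt Med12l (0.926), to Smc1b Dnaic2 (0.887), to Rec8 Sema4f (0.857), to Sycp3 Ddx4 (0.844) and Meioc (0.831), to Stag3 Mks1 (0.841) and to Sycp1 Btbd18 (0.810).

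**Figure D5:**
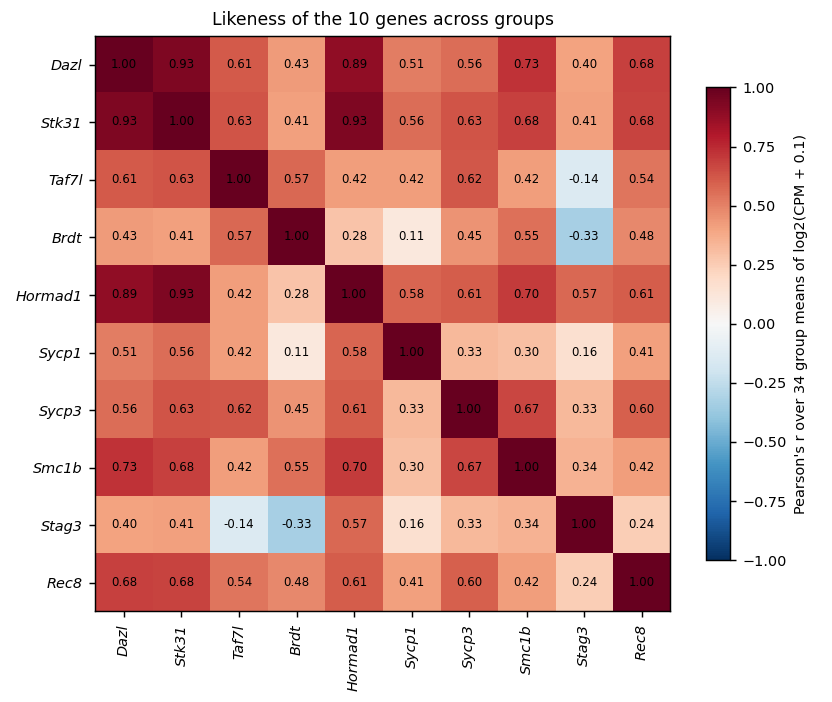
Pearson's r between the 10 genes over 34 group means of log2(CPM + 0.1), each cell 1 pair. The block of Dazl, Hormad1 and Stk31 holds values of 0.886 to 0.935.

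Other genes of the same pathways were counted in lists that overlap in 1 gene, Hormad2. In RCOR1/2 DKO EB 26.4% of all genes were called, 14.1% of all genes higher. There 6 of 7 tested genes of the synaptonemal complex and axis were called higher and none lower. Their median log2 fold change was 3.74, against -0.03 over all genes. Hormad2, the partner of Hormad1, rose by 8.06 ± 0.63 and Syce1, of the central element of the synaptonemal complex, by 7.90 ± 0.82. Of 21 tested genes of meiotic recombination 13 were called higher and 1 lower (median 1.80), among them Tex11 at 8.40 ± 0.75 and Mlh3, a DNA mismatch repair protein of crossovers, at 1.74 ± 0.14. Of 6 regulators of meiotic entry 5 were higher, with Meioc, which keeps germ cells in meiotic prophase, at 5.73 ± 0.34. Of 15 other germline genes known to be silenced by promoter methylation 14 were higher and none lower (median 4.96), with Piwil2 at 3.33 ± 0.19 and Mael at 8.46 ± 0.70, both of the piRNA pathway.

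In LSD1 KO EB the same lists gave 4 of 7 higher (synaptonemal complex and axis), 6 higher and 2 lower of 21 (recombination), 3 of 6 higher (meiotic entry) and 8 of 15 higher (other germline genes), where 13.7% of all genes were called. In LSD1 CI EB they gave 0 of 7, 1 lower of 21, 1 lower of 6 and 2 higher of 15, where 2.54% of all genes were called. In ESCs the other germline genes gave 7 of 15 higher in RCOR1/2 DKO, 4 higher and 2 lower in LSD1 KO and 3 higher in LSD1 CI, where 17.7%, 21.0% and 3.24% of all genes were called. In MLL4 KO ESC 4 of them were lower, among them Mov10l1 at -1.70 ± 0.44, and 5 of 21 recombination genes were lower, among them Dmc1, the meiotic recombinase, at -1.70 ± 0.32, where 10.7% of all genes were called.

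Of 23 genes for PRC1.6 subunits and enzymes of H3K9 and DNA methylation, which repress germline genes, 1 was called in LSD1 KO ESC, where 21.0% of all genes were called, Cbx1 at 1.17 ± 0.14. In RCOR1/2 DKO EB, where 26.4% were called, 2 of the 23 were, Dnmt3a at 2.05 ± 0.09 and L3mbtl2 at 1.40 ± 0.10, both higher. In MLL4 KO ESC, where 10.7% were called, 1 of the 23 was, Dnmt3b, which fell by 1.84 ± 0.29.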

How the data were processed

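RNA-seq libraries were made by ribosomal RNA depletion with a directional kit and sequenced as paired reads. The deposited values are raw counts per gene, which the authors made with stranded featureCounts on mm9 after alignment with STAR 2.7.9a, per the submitters' processing notes. No other column was used. Groups followed the labels. The 10 genes and all lists were chosen with earlier results of these data known.

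CPM was the count over the library's total count, and RPKM divided this by merged exon length. Comparisons used edgeR 4.0.16 (R 4.3.3; TMM scaling, filterByExpr by group, robust quasi-likelihood fit), with p-values adjusted by Benjamini-Hochberg over all genes tested in 1 comparison and not across the 35 comparisons. A call needed an adjusted p below 0.01 and a log2 fold change over 1 in size, and the SE was the fold change over the root of F. A further gene list is not reported here. List genes named in the text were at most 4 per list and comparison. DESeq2 1.42.0, no filter on low counts, other scalings, halved counts, single libraries left out and a replicate block were alternatives. The separation by alignment and by WT EB libraries was chosen after seeing the data. Between 72.2% and 84.7% of the counts in a library were even numbers, and the reason was not tested. The fits were tested on simulated counts. Totals of 17221431 to 58186717 counts limit precision to counting error for genes near 0. Replicate numbers paired libraries most closely with DOX. After subtracting group means, libraries with the same number correlated at 0.634 to 0.698 in LSD1Res and 0.602 to 0.686 in DKO + LSD1. The correlation was 0.517 for LSD1 CI against WT in serum and 0.512 to 0.543 for MLL4KO/LSD1CI against MLL4 KO. It was 0.341 to 0.407 for MLL4/LSD1 DKO against MLL4 KO, 0.379 with A485 in EBs and 0.003 for LSD1 KO against WT in EpiLCs.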

Additional observations from a re-analysis of the deposited data

Results flagged for a closer look

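In groups of 4 to 10 libraries, 9 of 150 pairs of gene and group had 1 library set apart from the rest by its gap over the range, and chance alone gives about 1 in 20. These were Dazl in LSD1 KO ESC 2 at 14.6 CPM and in LSD1Res DOX 4 at 72.9 CPM. Smc1b was at 2.21 CPM in WT EB 2. Stk31 was at 1.15 CPM in WT EB 6 and at 5.50 CPM in MLL4KO/LSD1CI ESC 4. Sycp1 was at 1.92 CPM in RCOR1/2 DKO ESC 4. Taf7l was at 1.75 CPM in LSD1 CI ESC 1, at 0.407 CPM in LSD1 CI EB 1 and at 0.163 CPM in RCOR1 KO EB 4.

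The effect of a genotype differed between EBs and ESCs, by the edgeR test of the difference itself, for 17 pairs of gene and genotype. As EB minus ESC on the log2 scale, LSD1 KO gave 2.42 for Dazl, 3.54 for Hormad1, -3.94 for Brdt, 3.52 for Sycp3, 1.02 for Stag3 and 1.49 for Rec8. LSD1 CI gave -2.14 for Smc1b, -2.65 for Brdt and 1.74 for Rec8. RCOR1/2 DKO gave 3.78 for Dazl, 3.26 for Smc1b, 5.92 for Hormad1, 3.77 for Stk31, -2.20 for Brdt, 6.27 for Sycp3, 3.15 for Stag3 and 2.33 for Rec8. All LSD1 KO ESC libraries are of the alignment without contig counts, and with the alignment as a term 2 of the 17 were not called, Stag3 for LSD1 KO at 0.72 (adjusted p = 0.067, edgeR) and Smc1b for LSD1 CI at -1.86 (adjusted p = 0.0148).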

How the results depend on the processing

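Numbers of the 10 genes called moved by more than 1.5 times under the settings that follow, and the cause was not tested. With DESeq2 the number went from 0 to 1 in RCOR1 KO ESC, from 0 to 2 in MLL4KO/LSD1CI against MLL4 KO, from 3 to 6 with A485 in EBs, from 1 to 3 with A485 in serum and from 0 to 1 with DOX in DKO + LSD1. A485 gave 6 in EBs and 2 in serum with all counts halved, and 6 and 3 with no filter. With only the groups compared in the fit the numbers were 3 for LSD1 KO EB, 1 for RCOR2 KO EB, 5 for A485 in EBs, 0 for LSD1 CI in serum, 3 for A485 in serum, 0 for WT EpiLC and 1 for the EB minus ESC difference of LSD1 CI. By alignment, MLL4KO/LSD1CI against WT gave 2 with the term and 2 within it, and WT EpiLC gave 1 and 0. LSD1 CI EB gave 1 against WT EB 4 to 7, and RCOR1 KO EB gave 1 against WT EB 1 to 3. Sycp1 in LSD1 KO ESC, at -2.29, reversed to 1.64 with the alignment term, 1.65 within the alignment and 0.11 with the replicate block.

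With the replicate block the number was 3 for LSD1 CI ESC, 1 for RCOR2 KO ESC, 2 for MLL4KO/LSD1CI against WT and 1 against MLL4 KO, 3 for LSD1 KO EB, 0 for LSD1 CI EB and RCOR2 KO EB, 6 for A485 in EBs, 5 for LSD1 CI and 4 for A485 in serum, 2 for DOX in DKO + LSD1, and 2 and 0 for the EB minus ESC differences of LSD1 KO and LSD1 CI. Outside the DOX experiment the labels give only a shared number. Same-numbered libraries correlated there in some comparisons, among them LSD1 CI against WT in serum at 0.517, and not in others. The labels do not say whether this block pairs libraries.

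Leaving out single libraries gave 2 to 2 for MLL4 KO, 2 to 5 for MLL4/LSD1 DKO and 0 to 1 for MLL4KO/LSD1CI against MLL4 KO, 2 to 5 for LSD1 KO EB, 1 to 2 for LSD1 CI EB, 0 to 3 for RCOR2 KO EB, 2 to 6 for LSD1 KO, 0 to 4 for LSD1 CI and 0 to 1 for A485 in serum, 1 to 4 for LSD1 KO and for LSD1 CI in EpiLCs, 1 to 3 for WT serum, 0 to 0 for WT EpiLC and 3 to 6 for the EB minus ESC difference of LSD1 KO. Of the single-gene calls, 394 kept and 68 lost their side of the threshold when a library was left out, with 0 reversed. DESeq2 kept 121 and lost 2. Genes near 0 counts, such as Brdt and Taf7l in WT ESC and Taf7l, Dazl, Hormad1 and Stk31 in WT EBs, are limited by depth.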
